A study of Mus musculus with 194 samples.

Results

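The genes studied here were the mouse zinc finger genes named Zfp and a number. They were taken by symbol from the RefSeq protein-coding genes of chromosomes 1 to 19 (GRCm38.p6), which gave 360 of 20665 genes. Symbols with a letter after the number were left out, and their inclusion gave 388 genes. The median Zfp gene was 18104 bp long, and chromosomes 7 and 17 held the most members, with 90 and 41.

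Most Zfp genes encode proteins with C2H2 zinc fingers, small folds that each hold a zinc ion and read a short stretch of DNA. Many of these proteins also carry a KRAB domain, which recruits the corepressor Trim28 and, through it, enzymes that build repressive chromatin, often over transposable elements. KRAB zinc finger genes multiplied by tandem duplication and lie in clusters. The symbol does not define 1 biochemical class: Zfp36, for example, encodes tristetraprolin, a CCCH zinc finger protein that binds RNA and speeds its decay.

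In calling cards, a reporter transposon is inserted into TTAA sequences by a transposase, and each inserted copy marks a place the enzyme visited. A transcription factor fused to the transposase directs insertions toward its binding sites. SP1 is a zinc finger transcription factor that binds GC boxes (GGGCGG), which are common in promoters. How SP1 was supplied, and which transposase was used, is not in the labels.

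The comparisons used cortex of animals labelled Syn1Cre, injected with AAV at postnatal day 0 to 1; Syn1 is a promoter known for activity in neurons, and the labels do not say how Cre was delivered. Syn1Cre animals without SP1 (6) were set against Syn1Cre animals with SP1, read as taken at postnatal day 28 (SP1 P28, 4) and day 10 (SP1 P10, 3) from their labels. Not all groups have a stated age, the Syn1Cre animals included. N2a, a mouse neuroblastoma cell line, has 1 table in which the authors combined its 3 experiments, so it has no replicate. GFAPCre animals (6; the GFAP promoter is known for activity in astrocytes) and BrokenHeart animals (3; insertions read from DNA instead of from the transposon's RNA) are given beside them. Cortices read from RNA were cut into 10 pieces, and the same position could be counted once in each piece and on each strand.

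Depth was 443158 to 1364948 insertions for Syn1Cre, 108965 to 577609 for SP1 P28, 86842 to 95331 for SP1 P10 and 806653 for N2a, in insertions per table. No deposited sequencing sample held both SP1 and Syn1Cre animals, so sequencing batch and SP1 cannot be told apart. In insertions scaled to 1000000 per table (CPM), 8 neuron marker loci (body with 1 kb) held 1986 to 2333 in Syn1Cre, 1537 to 1677 in SP1 P28, 1186 to 1416 in SP1 P10 and 966 in N2a. At 6 astrocyte loci the ranges were 442 to 1426, 706 to 1598 and 640 to 791 CPM, with 60.7 in N2a. These are insertion densities, not RNA levels, and their part in the results below was not tested. The Syn1Cre and SP1 tables held at most 20 insertions at 1 position and N2a 52, so CPM does not fully allow for depth. At Zfp gene ends the deepest Syn1Cre table had the lowest CPM of its group (1402), as had the deepest SP1 P28 table (3147). In SP1 P10, whose tables were close in depth, the deepest was not the lowest. The part of depth in the CPM ratios was not tested. Nothing in the labels says whether animals of a group came from separate litters, so p-values measure the spread between these animals.

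The promoters of 4 members are printed, picked with their values in view. Zfp78 and Zfp605 hold a TTAA used more per table with SP1, and Zfp239 and Zfp426 are members called lower than the typical gene end. Each is the 250 bases before a RefSeq start site (GRCm38.p6), 5′ to 3′ on the gene's strand, with TTAA and GC boxes (GGGCGG or CCGCCC) in capitals. They lie at chr7:6363058-6363307 (Zfp78, plus strand), chr5:110109842-110110091 (Zfp605, plus), chr6:117862631-117862880 (Zfp239, plus) and chr9:20492747-20492996 (Zfp426, minus).
Zfp78: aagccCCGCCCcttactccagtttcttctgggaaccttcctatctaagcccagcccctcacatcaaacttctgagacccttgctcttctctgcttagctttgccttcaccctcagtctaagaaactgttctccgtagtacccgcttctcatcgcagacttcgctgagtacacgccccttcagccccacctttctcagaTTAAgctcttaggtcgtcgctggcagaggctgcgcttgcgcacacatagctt
Zfp605: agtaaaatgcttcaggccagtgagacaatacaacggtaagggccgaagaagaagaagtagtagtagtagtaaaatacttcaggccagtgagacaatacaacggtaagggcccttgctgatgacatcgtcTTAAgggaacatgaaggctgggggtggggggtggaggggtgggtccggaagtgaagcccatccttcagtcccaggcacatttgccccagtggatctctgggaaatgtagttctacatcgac
Zfp239: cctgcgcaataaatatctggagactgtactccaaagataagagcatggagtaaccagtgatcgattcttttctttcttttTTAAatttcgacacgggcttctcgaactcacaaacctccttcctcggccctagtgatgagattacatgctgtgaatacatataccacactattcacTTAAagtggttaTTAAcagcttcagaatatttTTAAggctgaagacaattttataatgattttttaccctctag
Zfp426: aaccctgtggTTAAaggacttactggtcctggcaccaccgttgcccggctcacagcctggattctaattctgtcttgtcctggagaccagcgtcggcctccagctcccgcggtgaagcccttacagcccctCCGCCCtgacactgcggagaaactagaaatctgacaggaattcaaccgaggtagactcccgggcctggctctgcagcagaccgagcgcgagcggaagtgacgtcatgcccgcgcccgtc

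In the Zfp78 window the single TTAA lies 52 bases before the start site. It held 3, 7, 7 and 11 insertions in the SP1 P28 animals and 6, 3 and 3 in the SP1 P10 animals. It held 0 in all 6 Syn1Cre animals, in all 6 GFAPCre animals and in N2a. The groups with SP1 did not overlap those without it at this position, and the means were 34.7 CPM in SP1 P28 and 44.7 in SP1 P10.

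In the Zfp605 window, which has no GC box, the TTAA 121 bases before the start held 6, 4, 5 and 5 insertions in SP1 P28 and 4, 5 and 5 in SP1 P10. Syn1Cre held 0 to 4, and the means were 2.48 CPM in Syn1Cre, 25.4 in SP1 P28 and 51.4 in SP1 P10. The Zfp239 window has 4 TTAA sites and no GC box. At 74 bases before its start, Syn1Cre animals held 3 to 8 insertions (median 7.5), SP1 P28 animals 1, 2, 1 and 5, and SP1 P10 animals 0. In CPM, which allows for depth only in part, that position had a mean of 7.39 in Syn1Cre and 9.35 in SP1 P28. The lower counts at P28 were thus not a lower mean CPM. N2a held 14 insertions there. The whole Zfp239 window had 21.9 CPM in Syn1Cre, 15.1 in SP1 P28 and 7.55 in SP1 P10. In the Zfp426 window, which has both a TTAA and a GC box, the TTAA 240 bases before the start held 6 to 9 insertions in Syn1Cre, 2, 0, 2 and 3 in SP1 P28, and 0, 2 and 0 in SP1 P10. In CPM the means there were close, at 8.17 in Syn1Cre, 6.49 in SP1 P28 and 7.43 in SP1 P10.

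Insertions within 1 kb of either end of a Zfp gene were more frequent in every SP1 animal than in any Syn1Cre animal. Syn1Cre held 1402 to 1712 CPM (median 1558; mean 1560 ± 126, SD, n = 6). SP1 P28 held 3596, 4038, 3985 and 3147 CPM (mean 3692 ± 413, SD, n = 4), 2.37 times the Syn1Cre mean. SP1 P10 held 3719, 4433 and 4301 CPM (mean 4151 ± 380, SD, n = 3), a ratio of 2.66. The ends of all protein-coding genes had ratios of 2.58 and 2.97. The gain at Zfp genes was therefore a little below that at genes in general, and the Zfp share of all gene-end insertions was 2.02% to 2.18% in Syn1Cre, 1.85% to 1.95% in SP1 P28 and 1.77% to 1.94% in SP1 P10. No test was made on these sums.

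**Figure D1:**
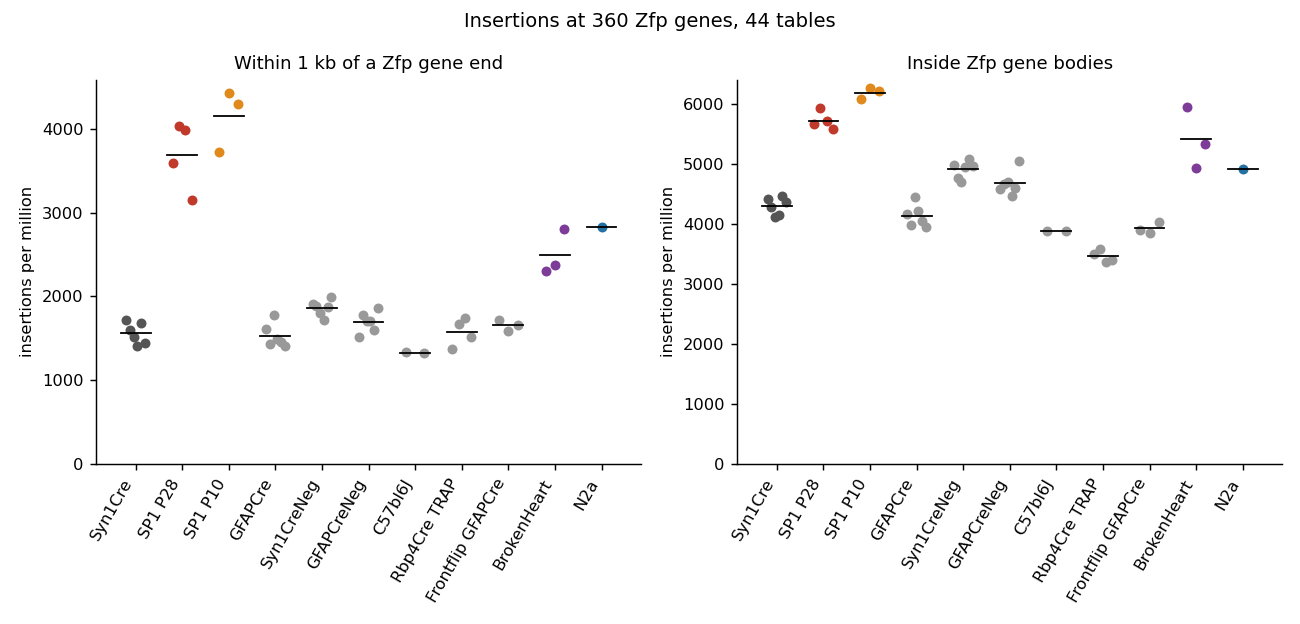
Insertions in CPM within 1 kb of a Zfp gene end (left) and inside Zfp gene bodies (right), with 1 point per table, black lines for group means, and 44 tables. The SP1 animals lie above all Syn1Cre animals in both panels; 3 Frontflip GFAPCreNeg tables with 2341 to 9601 insertions were left out.

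N2a held 2834 CPM at gene ends (95% Poisson interval 2719 to 2953, for counting error only), 1.82 times the Syn1Cre mean. For all genes the N2a ratio was 1.37, and the Zfp share of gene-end insertions was 2.77%. BrokenHeart animals held 2300 to 2799 CPM, a ratio of 1.60 against 1.18 for all genes. GFAPCre animals (1406 to 1775 CPM) overlapped Syn1Cre. Zfp gene ends thus took a larger share of gene-end insertions in N2a and in the DNA-read libraries than in Syn1Cre cortex.

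The test asked which single members differed from Syn1Cre. edgeR's quasi-likelihood test with TMM factors (Benjamini-Hochberg adjustment over all tested genes) removes the general gain at gene ends, so its log2 fold changes are relative to the typical gene end. At P28, 53 members passed the low-count filter: 14 were called higher (26.4%, where the share called over all genes was 33.4%) and 17 lower (32.1%, against 31.0%), where 64.5% of all genes were called in either direction. At P10, 60 passed: 12 were called higher (20.0%, against 28.4%) and 22 lower (36.7%, against 32.2%), where 60.6% of all genes were called. The median log2 fold change of tested members was -0.10 at P28 and -0.32 at P10, beside 0.06 and -0.10 for all genes.

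With each table scaled by its total insertions instead, 41 members were called higher and 1 lower at P28 (all genes 78.7% and 1.65%), and 37 and 1 at P10 (65.8% and 2.0%). The medians were then 1.60 and 1.78, beside 1.74 and 2.00 for all gene ends. Of the 17 members called lower under TMM at P28, 15 had a positive log2 fold change with total scaling and 2 a negative one, 1 of them called. Of the 22 at P10, 10 were positive and 12 negative, 1 of them called. With each position counted once, 4 of 14 tested members were called at P28 (28.6%; all genes 34%) and 7 of 32 at P10 (21.9%; all genes 19.6%). With Syn1Cre animals 4 to 6 alone, 15 were called at P28 (41.7%; all genes 57.8%) and 9 at P10 (56.2%; all genes 52.4%). SP1 P28 and SP1 P10 share the Syn1Cre controls.

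Of the 360 members, 194 had a higher gene-end mean in SP1 P28 than in Syn1Cre, 133 a lower one, and 33 were equal. All SP1 P28 animals lay above all Syn1Cre animals for 64 members and below for 4. For SP1 P10 the counts were 171 higher, 155 lower and 34 equal, with 59 above and 24 below. The same counts were not made over all genes, whose ends had ratios of 2.58 (P28) and 2.97 (P10). They are therefore no result about Zfp genes in particular. No insertion was seen at the ends of 87 members in SP1 P28, 156 in SP1 P10 and 34 in Syn1Cre, with far fewer insertions in the SP1 groups.

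Zfp78 (chr7:6362809-6382606) had the largest change among tested members at P28 and, with Zfp239 close behind in the other direction, at P10. Zfp78, Zfp687, Zfp580, Zfp36, Zfp9 and Zfp524 were low in Syn1Cre and passed the low-count filter only through the SP1 animals. The rule that named them also asked for groups that lay apart. Their separation below is thus a condition of choice and no separate support. Its ends held 2.20 to 5.60 CPM in Syn1Cre (median 3.55), 125, 284, 188 and 98.7 in SP1 P28, and 299, 301 and 283 in SP1 P10. The groups were far apart, while N2a held 13.6. The log2 fold change was 3.54 ± 0.27 (SE; adjusted p = 4.26e-13, edgeR) at P28 and 4.17 ± 0.28 (adjusted p = 2.46e-14) at P10, and 5.37 and 6.28 with total scaling. Its ends overlap those of Zfp28, so the insertions cannot be given to 1 of the pair. Much of the gain lay at single TTAA sites: the one at -941 (bases from the start) held 12, 12, 13 and 17 insertions in SP1 P28, 12, 12 and 14 in SP1 P10, 0 to 4 in Syn1Cre and 3 in N2a. The position at -1137 had means of 54.1 CPM in SP1 P28, 99.3 in SP1 P10 and 1.04 in Syn1Cre.

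**Figure D2:**
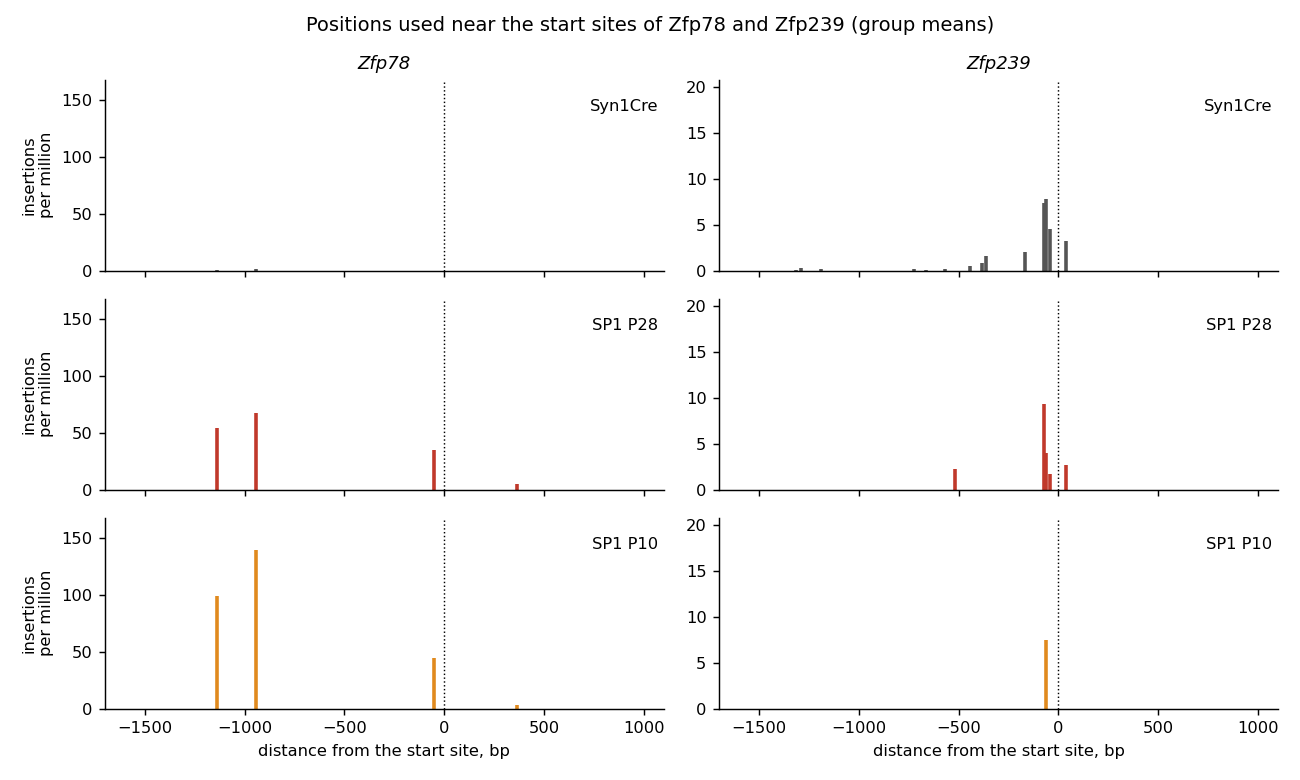
Mean CPM at each position near the start sites of Zfp78 (left) and Zfp239 (right) in Syn1Cre (top), SP1 P28 (middle) and SP1 P10 (bottom); the dotted line is the start site and the vertical scales differ between the genes. The Zfp78 insertions of SP1 animals stand at few positions, those at -1137, -941 and -52 from the start among them.

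Zfp687 (chr3:94994674-95015948), a C2H2 protein found in a chromatin complex with Zmynd8, held 5.86 to 11.3 CPM in Syn1Cre (median 9.55), 112, 110, 121 and 67.5 in SP1 P28, and 184, 145 and 231 in SP1 P10. All SP1 animals lay above all Syn1Cre animals. Its log2 fold change was 1.69 ± 0.22 (SE; adjusted p = 8.09e-08, edgeR) at P28 and 2.29 ± 0.28 (adjusted p = 3.07e-08) at P10. With each position counted once it was not called (0.71 and 0.94, adjusted p = 0.140 and 0.137, edgeR).

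Zfp580 held 1.19 to 3.99 CPM in Syn1Cre, 60.4, 110, 128 and 50.2 in SP1 P28, and 104, 44.6 and 115 in SP1 P10. The groups did not overlap. At P28 the log2 fold change was 2.88 ± 0.32 (SE; adjusted p = 3.24e-09, edgeR), and at P10 2.74 ± 0.44 (adjusted p = 4.21e-06). Its ends overlap those of Ccdc106 and Zfp784. Zfp36, the tristetraprolin gene, held 1.33 to 6.77 CPM in Syn1Cre, 86.2, 101, 54.7 and 46.7 in SP1 P28, 104, 89.1 and 147 in SP1 P10, and 22.3 in N2a. At P28 it changed by 2.32 ± 0.31 on the log2 scale (SE; adjusted p = 8.19e-08, edgeR), and at P10 by 2.74 ± 0.38 (adjusted p = 4.06e-07).

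Zfp9 and Zfp524 were called higher in both comparisons with smaller values. Zfp9 held 4.68 to 7.84 CPM in Syn1Cre, 38.8, 55.1, 36.4 and 39.8 in SP1 P28, and 57.6, 78.0 and 83.9 in SP1 P10, with log2 fold changes of 1.00 and 1.40. Zfp524, whose ends overlap those of Fiz1 and Zfp865, held 2.26 to 7.81 in Syn1Cre, 51.7, 45.9, 36.4 and 39.8 in SP1 P28, and 46.1, 123 and 105 in SP1 P10, with log2 fold changes of 1.10 and 1.76. Neither was called at P10 with Syn1Cre animals 4 to 6 alone.

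**Figure D3:**
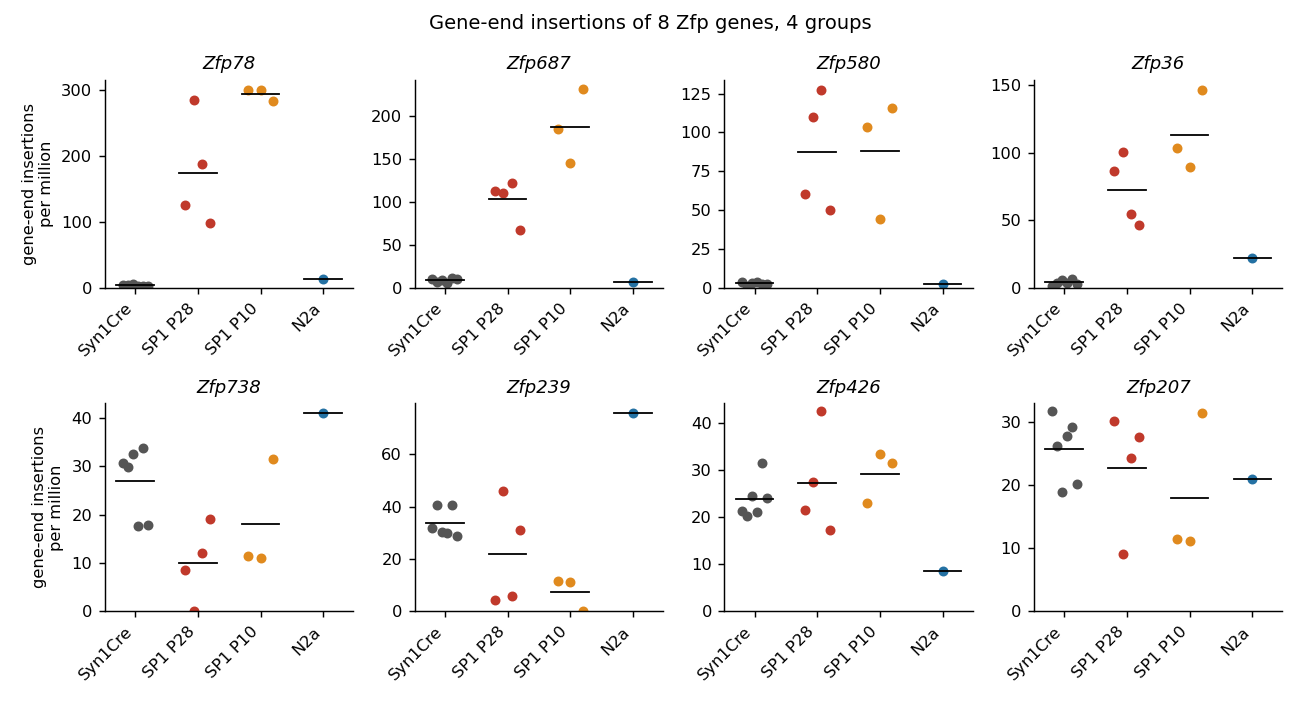
Gene-end CPM of 8 Zfp genes in Syn1Cre, SP1 P28, SP1 P10 and N2a, with 1 point per table and black lines for group means. Zfp78, Zfp687, Zfp580 and Zfp36 (top) separate SP1 from Syn1Cre, which the rule that named them asked for. In the bottom row Zfp738, Zfp426 and Zfp207 overlap, and Zfp239 overlaps at P28.

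Zfp738 and Zfp239 were called lower than the typical gene end. Zfp738 held 17.6 to 33.8 CPM in Syn1Cre (median 30.2), 8.62, 0, 12.1 and 19 in SP1 P28, 11.5, 11.1 and 31.5 in SP1 P10, and 40.9 in N2a. At Zfp738 both SP1 groups overlapped Syn1Cre. Its log2 fold change was -2.50 ± 0.33 (SE; adjusted p = 7.21e-08, edgeR) at P28, and -0.92 (adjusted p = 0.0305) with total scaling, the 1 member called lower on that scale. At P10 it was -2.52 ± 0.47 (adjusted p = 3.37e-05, edgeR) and not called with total scaling.

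Zfp239 held 28.9 to 40.6 CPM in Syn1Cre (median 31.1), 4.31, 45.9, 6.07 and 31.2 in SP1 P28, and 11.5, 11.1 and 0 in SP1 P10. SP1 P28 overlapped Syn1Cre and SP1 P10 did not. Its log2 fold change was -2.16 ± 0.28 (SE; adjusted p = 7.04e-08, edgeR) at P28 and -4.14 ± 0.52 (adjusted p = 5.20e-08) at P10; with total scaling only P10 was called (-2.12, adjusted p = 0.0118).

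Zfp426, Zfp207 and Zfp85 were called lower at P28 (log2 fold changes -1.66, -1.62 and -1.49), yet their CPM values overlapped Syn1Cre, and with total scaling the values were 0.03, 0.01 and 0.14. Zfp207 encodes a kinetochore and spindle protein. At P10, Zfp84 (-3.04 ± 0.66, adjusted p = 0.000209, edgeR) and Zfp532 (-3.36 ± 0.52, adjusted p = 2.04e-06) were called lower. Both calls were lost with total scaling (Zfp84 -1.01, adjusted p = 0.316; Zfp532 -1.31, adjusted p = 0.104, edgeR). Zfp84 held 11.9 to 19.5 CPM in Syn1Cre and 11.5, 11.1 and 0 in SP1 P10. Zfp532 held 23.9 to 47.4 CPM in Syn1Cre, 51.7, 45.9, 48.6 and 19 in SP1 P28, and 0, 11.1 and 21 in SP1 P10.

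**Figure D4:**
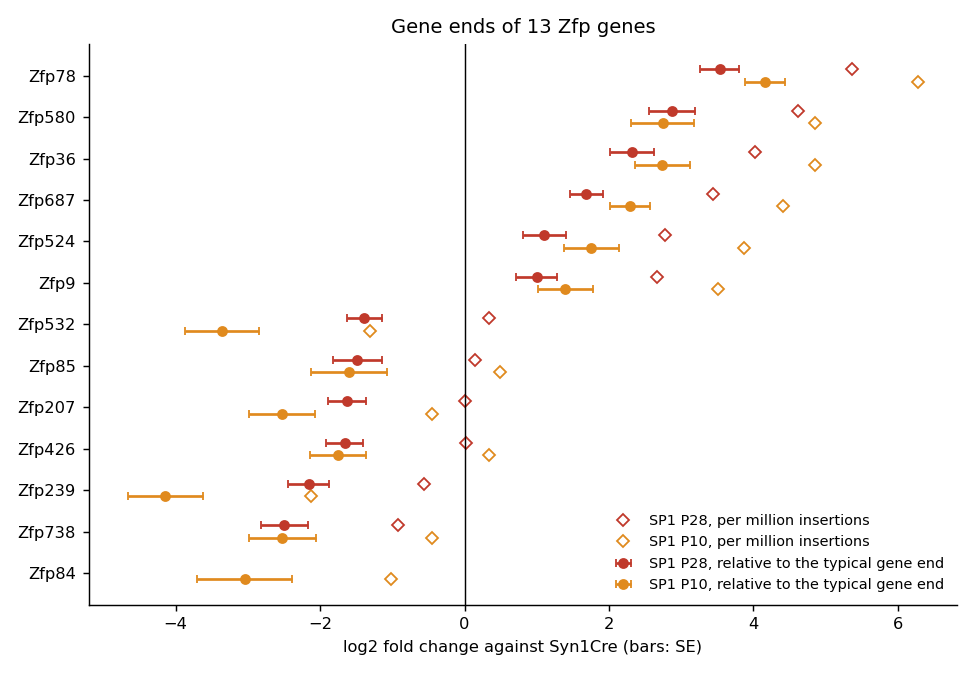
Log2 fold change at the ends of 13 named Zfp genes against Syn1Cre, for SP1 P28 (red) and SP1 P10 (orange); filled points with SE bars are relative to the typical gene end and open diamonds are scaled by total insertions. Zfp78, Zfp580, Zfp36 and Zfp687 are above 0 on both scales, while Zfp426, Zfp207 and Zfp85 are near 0 by total insertions.

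In N2a the members with the most gene-end insertions were Zfp239 (75.6 CPM, 95% Poisson interval 57.8 to 97.1), Zfp24 (55.8), Zfp457 (44.6), Zfp882 (44.6) and Zfp53 (43.4). In Syn1Cre they were Zfp608 (mean 54.3 CPM), Zfp239 (33.7), Zfp24 (31.2), Zfp532 (29.5) and Zfp738 (27.0). Zfp24 and Zfp239 are in both lists. Zfp457 held 6.77 to 15.7 CPM in Syn1Cre, 4.31, 0, 0 and 3.46 in SP1 P28, and 0, 11.1 and 0 in SP1 P10, too few insertions to be tested. Zfp24, known for a part in myelination, held 24.2 to 45.1 CPM in Syn1Cre, 43.1, 64.2, 60.7 and 15.6 in SP1 P28, and 34.5, 33.4 and 10.5 in SP1 P10, and both SP1 groups overlapped Syn1Cre. Relative to the typical gene end Zfp24 was called lower (log2 fold changes -1.47 and -2.28). Zfp53, whose ends overlap those of Zfp52, held 17.2 to 24.8 CPM in Syn1Cre, 81.9, 73.4, 42.5 and 71.0 in SP1 P28, and 69.1, 78.0 and 105 in SP1 P10. All SP1 animals lay above all Syn1Cre animals at Zfp53, by about as much as the typical gene end (log2 fold change 0.04 at P28, adjusted p = 0.889, edgeR). Zfp536, known as a negative regulator of neuronal differentiation, had 0 insertions at its ends in N2a, which allows up to 3.72 CPM (3 insertions of the table), beside 12 to 33.8 in Syn1Cre.

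The RefSeq promoter table held windows of 300 bases (250 before the start and 50 after) for 301 of the 360 members. The search was for GGGCGG on either strand, and a match is a description of the letters only. Of members' windows 44.1% held it, and of all protein-coding windows 47%. Members with a GC box had 3.17 (P28) and 3.95 (P10) times the Syn1Cre gene-end insertions, and members without one 1.75 and 1.65 times. For all genes the ratios were 3.10 and 3.69 with a GC box, and 1.85 and 1.98 without. In N2a they were 1.94 and 1.85 for members.

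Among tested members with a GC box at P28, 8 of 23 were called higher (34.8%) and 4 lower (17.4%), with a median log2 fold change of 0.04. For all tested genes with a GC box the shares were 38.6% and 25.8%, and the median 0.25. Without one, 2 of 17 were called higher (11.8%) and 9 lower (52.9%), with a median of -0.74, where all genes had 21% and 45.5% and a median of -0.50. At P10, 6 of 24 members with a GC box were called higher (25%) and 5 lower (20.8%), with a median of -0.05, where all genes had 33.1%, 26.1% and 0.22. Without one, 2 of 22 were called higher (9.09%) and 12 lower (54.5%), with a median of -1.33, where all genes had 16.5%, 48.3% and -0.96. The members thus followed the split seen over all genes.

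Zfp genes lie in clusters: 180 members fell into 28 groups of at least 3 members with gaps of at most 200 kb, and 180 lay outside. Gene-end ratios were 2.42 (P28) and 2.54 (P10) in clusters and 2.32 and 2.76 outside. Single clusters differed widely. The cluster on chromosome 7 at chr7:6131489-6396637, which holds Zfp78, had 11.2 CPM in Syn1Cre, 227 in SP1 P28 and 350 in SP1 P10, ratios of 20.3 and 31.4 without overlap. The Zfp78 ends alone had means of 174 CPM in SP1 P28 and 294 in SP1 P10. These ratios thus largely repeat the Zfp78 result. The cluster at chr7:4915181-5053723, which holds Zfp580 and Zfp524, had ratios of 8.96 and 9.81. At P28 the ends of these members held means of 87.1 and 43.5 CPM, beside 241 for the cluster. The cluster at chr17:21383707-22456689, which holds Zfp53, had ratios of 3.42 and 4.13 (N2a 2.74). The cluster at chr7:29768552-30169775, which holds Zfp84, had 1.88 and 1.30, the latter with overlap. The largest, at chr13:67038594-67827000 with 19 members, Zfp738 and Zfp85 among them, had ratios of 0.79 and 0.95, and its animals overlapped Syn1Cre; in N2a it held 263 CPM, 2.52 times Syn1Cre.

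The gain lay at start sites more than at the other gene end. The strand was taken from the promoter windows, so 5′ and 3′ ends cover only genes with a window, 301 of the 360 members. At the 5′ ends of these members, SP1 P28 had 2.50 and SP1 P10 2.90 times the Syn1Cre insertions (all genes 3.28 and 3.89). At 3′ ends the ratios were 1.55 and 1.25, and SP1 P10 overlapped Syn1Cre there (all genes 1.35 and 1.42). In the 300-base promoter windows, members had ratios of 2.82 and 3.29, below the 4.44 and 5.46 of all genes.

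Further out the members' ratios were the higher ones, but the zones of members and of all genes are not alike. From 2 to 5 kb before a start site, members had ratios of 2.08 and 2.17 where all genes had 1.21 and 1.32; from 2 to 5 kb after it, 1.77 and 1.97 where all genes had 1.16 and 0.996. Each insertion was given to the nearest start site of its own set. The zones of all genes thus hold no insertion within 2 kb of any start site in the promoter table. The members' zones leave out members' start sites only and can hold those of other genes. The ratios of members and of all genes are therefore not like for like, and the part of other genes' start sites was not tested.

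**Figure D5:**
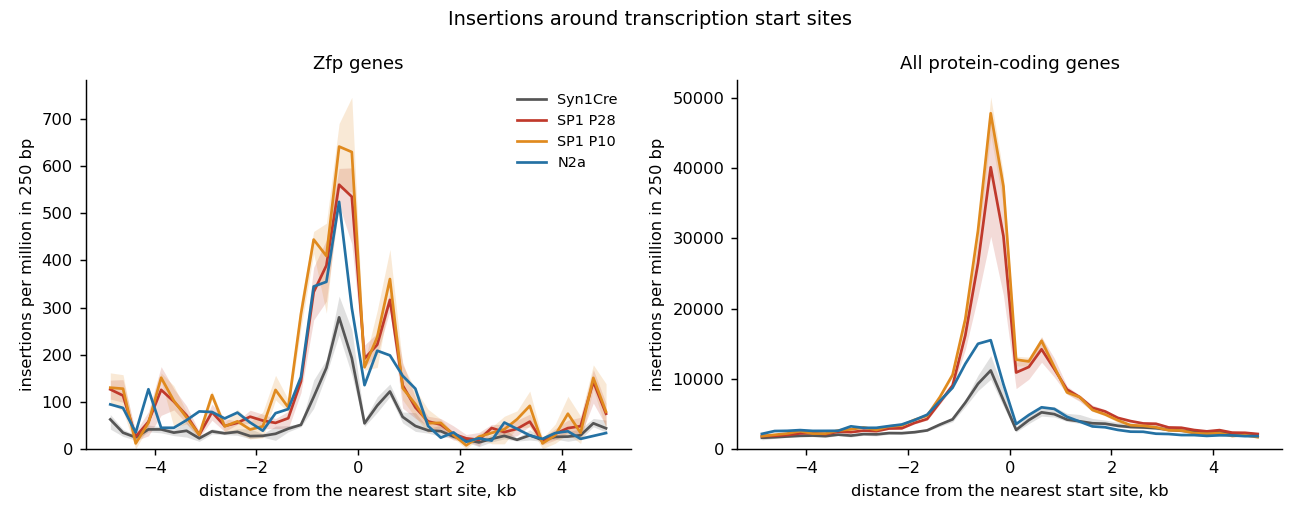
Mean CPM in 250 bp bins around start sites for Zfp genes (left) and all protein-coding genes (right); bands span the lowest and highest table of a group. In both, SP1 groups rise within 1 kb before the start, where members had 2.41 (P28) and 2.82 (P10) times Syn1Cre.

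Inside Zfp gene bodies, SP1 animals also held more insertions than Syn1Cre animals, while gene bodies in general did not; the sums were not tested. Syn1Cre held 4109 to 4468 CPM (mean 4300 ± 145, SD, n = 6), SP1 P28 5580 to 5938 (mean 5723 ± 153, SD, n = 4) and SP1 P10 6080, 6260 and 6220 (mean 6187 ± 94.7, SD, n = 3). The ratios were 1.33 and 1.44, with no overlap, where all gene bodies had 0.97 (overlapping) and 0.88. Over 1 kb from both ends of the gene they were 1.15 and 1.26 (all genes 0.89 and 0.78). Over 1 kb from every protein-coding gene end they were 1.12 and 1.23 (all genes 0.89 and 0.77), also with no overlap; this last measure was chosen after seeing the data. N2a held 4924 CPM, 1.15 times Syn1Cre (all genes 0.75). A single member, Zfp536, held much of the P10 rise away from gene ends. Its body had means of 489 CPM in Syn1Cre, 511 in SP1 P28 and 1048 in SP1 P10. Over 1 kb from every gene end, all members together had means of 3623 CPM in Syn1Cre and 4443 in SP1 P10. The P10 ratios are thus no trait of Zfp bodies in general, and no ratio was made without Zfp536.

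At P28, 82 members passed the filter for bodies: 31 were called higher (37.8%, where the share called over all genes was 25.6%) and 4 lower (4.88%, against 18.1%), with 43.7% of all genes called. At P10, 88 passed: 24 were called higher (27.3%, against 17.5%) and 9 lower (10.2%, against 15.4%), with 32.9% of all genes called. With total scaling the counts were 33 and 3 at P28 (all genes 28.3% and 15.5%) and 25 and 6 at P10 (18.4% and 14%). The median log2 fold changes were 0.42 and 0.27, beside 0.04 and -0.19 for all genes. Counted over 1 kb from both ends, 15 of 55 members were called higher at P28 (27.3%; all genes 20%) and 4 lower (7.27%; all genes 18.3%). At P10 these were 16 of 65 higher (24.6%; all genes 13.5%) and 7 lower (10.8%; all genes 13%).

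Zfp574 had the highest body log2 fold changes among tested members, at 4.64 ± 0.50 at P28 (SE, adjusted p = 3.37e-07, edgeR) and 5.67 ± 0.59 at P10 (adjusted p = 1.38e-07). It was picked after its values were seen, so its p-values are no separate support, and its ends overlap those of Grik5. Whether it passed the low-count filter only through the SP1 animals is not given here. Members of neural development were chosen as a list of 10. In bodies, 8 were tested at P28 and 3 were called higher, 0 lower, beside 25.6% and 18.1% of all gene bodies; at P10, 1 of 7 was called higher and 1 lower, beside 17.5% and 15.4%. Zfp423 (0.59 ± 0.18, adjusted p = 0.0118, edgeR) and Zfp521 (0.91 ± 0.32, adjusted p = 0.0240), related factors that act with Ebf proteins, were among them, with Zfp335 (1.02 ± 0.36, adjusted p = 0.0271). The Zfp335 body passed the low-count filter at P28 only through the SP1 animals, where it is high. Its call is thus no separate support. At P10 the Zfp521 body was not called (0.23, adjusted p = 0.726, edgeR), and the Zfp335 body was not tested, with means of 10.6 CPM in Syn1Cre, 22.5 in SP1 P28 and 3.84 in SP1 P10.

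Zfp423 bodies held 65.9 to 92.1 CPM in Syn1Cre, 125, 184, 146 and 106 in SP1 P28, and 92.1, 89.1 and 73.4 in SP1 P10. SP1 P28 lay above Syn1Cre and SP1 P10 overlapped it. Zfp536 bodies held 417 to 542 in Syn1Cre, 505, 551, 395 and 594 in SP1 P28, and 1013, 913 and 1217 in SP1 P10. It was called higher at P10 only (1.03 ± 0.14, adjusted p = 2.83e-06, edgeR; P28 0.00, adjusted p = 0.992). Zfp609 was called lower at P10 (-0.94, adjusted p = 0.0379). The difference between P28 and P10 in bodies was not tested.

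At their ends, 4 of the 10 were tested at P28, with 0 called higher and 2 lower (Zfp608 -0.71 and Zfp536 -0.92), beside 33.4% and 31.0% of all gene ends; with total scaling 4 were called higher and 0 lower (all genes 78.7% and 1.65%). At P10, of 4 tested, TMM gave 0 higher and 3 lower (all genes 28.4% and 32.2%) and total scaling 2 higher and 0 lower (65.8% and 2.0%). Zfp608 held 44.0 to 83.5 CPM in Syn1Cre, 108, 147, 121 and 79.6 in SP1 P28, and 104, 134 and 94.4 in SP1 P10.

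Zfp281 and Zfp148 encode factors that bind GC-rich DNA. They belong to a list of 4 members that bind promoters or GC-rich DNA, and only these 2 were tested in bodies. Zfp143 and Zfp410 had too few insertions. At P28 the bodies of both tested members were called lower, beside 18.1% of all gene bodies. Zfp281 changed by -1.29 ± 0.45 (adjusted p = 0.0246, edgeR), with 26.9 CPM in Syn1Cre and 9.95 in SP1 P28. Zfp148 changed by -0.90 ± 0.25 (adjusted p = 0.00645, edgeR), with 50.5 and 26.2. At P10 the Zfp148 body was not called (-0.29, adjusted p = 0.613, edgeR), with 44.3 CPM. The Zfp281 body held 0 insertions in all SP1 P10 animals, at least 2.43-fold lower than Syn1Cre against a floor of 3 insertions over the group (adjusted p = 0.0138, edgeR). The bodies of Zfp365, Zfp65, Zfp318 and Zfp236 were also at 0 in all SP1 P10 animals and called lower, at least 2.33-, 1.61-, 1.35- and 1.31-fold by the same floor. Zfp281 ends were not called at P28 or P10 under TMM and were called higher with total scaling (1.58, adjusted p = 5.10e-06, and 2.28, adjusted p = 2.90e-06, edgeR), with 4.77 to 23.5 CPM in Syn1Cre, 64.7, 45.9, 72.9 and 41.6 in SP1 P28, and 104, 78.0 and 83.9 in SP1 P10. Imprint and provirus silencing members (Zfp57, Zfp568 and Zfp809) had too few gene-end insertions to be tested.

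Of 13 genes of the KRAB corepressor machinery, 3 were tested at their ends at P28, with 1 called higher and 1 lower (all genes 33.4% and 31.0%). Cbx5, a heterochromatin protein gene, was called higher (1.70 ± 0.25, adjusted p = 7.42e-07, edgeR) and Smarcad1 lower (-2.31 ± 0.34, adjusted p = 7.40e-07). With total scaling Smarcad1 was not called (-0.71, adjusted p = 0.119, edgeR), and 2 of the 3 were called higher (all genes 78.7%). At P10, 2 of 4 were called higher and 1 lower under TMM (all genes 28.4% and 32.2%), and 2 and 0 with total scaling (all genes 65.8% and 2.0%). At P10, Trim28 was called higher (1.68 ± 0.57, adjusted p = 0.0123, edgeR), with 2.36 CPM in Syn1Cre and 36.9 in SP1 P10. Trim28 and Cbx5 (6.65 CPM in Syn1Cre) passed the low-count filter through the SP1 animals, where they are high. Among other zinc finger families, the ends of 22 Zscan and Zkscan genes had ratios of 1.67 and 1.04 (the latter overlapping), and those of 34 Zbtb genes 2.26 and 2.80.

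Between SP1 P28 and SP1 P10, 6 members were tested at their ends and 0 were called (all genes 2.51%). At an unadjusted p under 0.05, edgeR had 1 of the 6 and DESeq2 0, and the lowest adjusted p was 0.260 (edgeR). GFAPCre against Syn1Cre gave 0 higher and 1 lower of 26 members (all genes 0.961% and 0.901%, together 1.86%). The member was Zfp536 (-1.29, adjusted p = 0.0159, edgeR), with 1.67 to 24.9 CPM in GFAPCre and 12 to 33.8 in Syn1Cre. At an unadjusted p under 0.05 there were 2 of the 26. The Zfp536 call was lost without GFAPCre animal 1 or 4 (0 called), and 2 members were called without Syn1Cre animal 6.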

How the data were processed

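Insertions were counted from the 47 deposited tables, where each line is 1 insertion with its position and a read count; per the labels' protocols, SRT pieces were processed apart and pooled. The deposited read counts are raw counts, judged from their values. The submitters' processing notes name mm10, Novoalign and Bowtie2, with roles not given in the sources used here. Starts were checked against TTAA in promoters and set to 1-based positions. Genes, and promoter sequences, came from RefSeq (GRCm38.p6). Lines within 1 kb of a gene end, or inside the body, were counted per gene and given in CPM (scaled to 1000000 insertions per table). edgeR 4.0.16 (R 4.3.3; glmQLFit, glmQLFTest, TMM, filterByExpr) tested all genes, and DESeq2 1.42.0 was an alternative. The scripts were tested on simulated data. Members and lists were chosen with earlier results of these data known. Named members were those called with groups apart in TMM-scaled CPM and values at or above the tested median (at P28 up to 10 higher and 5 lower, at P10 5 and 5), the top 5 in N2a and in Syn1Cre, and a fixed list. Sums were not tested.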

Additional observations from a re-analysis of the deposited data

Results flagged for a closer look

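Zfp532 at its gene ends in Syn1Cre animal 5 held 47.4 CPM (insertions scaled to 1000000 per table), where the other 5 animals held 23.9 to 29.1, a gap large for the group's range. It was the 1 such value among 38 groups checked; chance gives about 1 in 20.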

How the results depend on the processing

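Counts of called members varied most with depth and with how an insertion was counted. The number tested changed too, and so did the share of all genes called. At P28 ends that share was 64.5%, with distinct positions 34.0% and with Syn1Cre animals 4 to 6 only 57.8%. At P10 ends it was 60.6%, 19.6% and 52.4%. In bodies over 1 kb from both ends it was 38.3% at P28 and 26.4% at P10. For the other settings no share over all genes is given, so those counts show no trait of the members. Gene ends at P28 (31 called) gave 4 with distinct positions, 65 with no low-count filter, 1 when thinned to the shallowest table, 12 within 500 bp and 15 with Syn1Cre animals 4 to 6 only. Gene ends at P10 (34) gave 7, 53, 1 and 15 in the same order, 19 with Syn1Cre animals 1 to 3 only and 9 with 4 to 6. Bodies at P28 (35) gave 18 with distinct positions, 21 with at least 2 reads, 4 thinned, 19 over 1 kb from both ends and 58 with 1 kb on each side. Bodies at P10 (33) gave 21 with at least 2 reads, 6 thinned, 52 with 1 kb on each side and 13 with Syn1Cre animals 4 to 6. GFAPCre ends (1) gave 0 with distinct positions, at least 2 reads, thinning or 500 bp, 2 with no filter and 3 with Syn1Cre animals 1 to 3. The body ratios were 1.18 (P28) and 1.28 (P10) with suffixed symbols, 1.15 and 1.26 over 1 kb from both ends, and 1.12 and 1.23 over 1 kb from every gene end; the P10 gene-end ratio was 3.00 within 500 bp. The cause of these shifts was not tested.

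Without 1 replicate, called members ranged over 24 to 41 (ends P28), 26 to 35 (ends P10), 27 to 34 (bodies P28), 24 to 36 (bodies P10), 0 to 0 (P28 against P10) and 0 to 2 (GFAPCre). The ratios ranged over 2.29 to 2.48, 2.57 to 2.80, 1.31 to 1.34 and 1.43 to 1.45.

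With total insertions in place of TMM the sign turned at P28 for Zfp281 (1.58), Zfp207 (0.011), Zfp85 (0.14), Zfp608 (1.01), Zfp335 (1.02), Zfp536 (0.73), Zfp426 (0.027), Zfp24 (0.28) and Zfp532 (0.33), and at P10 for Zfp608 (1.09), Zfp536 (0.97), Zfp703 (1.80), Zfp426 (0.34), Zfp85 (0.49) and Zfp53 (1.99). Zfp281 at P10 was -0.70 at 2 kb and -1.04 with Syn1Cre animals 4 to 6. Over the members whose ends overlap no other gene's, an alternative chosen after seeing the data, 23 were called at P28 and 27 at P10. Their share of the tested ones is not given here, and of all tested gene ends 64.5% and 60.6% were called. Same-numbered animals did not deviate together (correlations -0.0212 to 0.00823 at P28 and P10, and -0.223 to 0.0949 for GFAPCre), so animals share only a number; the replicate block gave 31 and 34 called at the ends, 33 and 35 in bodies, 0 for P28 against P10 and 1 for GFAPCre. SP1 P10 tables (86842 to 95331 insertions) limit what could be seen there.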
